A study of Rattus norvegicus with 6 samples.

Results

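The 9 genes described here, Col1a1, Col1a2, Col3a1, Dcn, Lum, Igf2, Fn1, Sparc and Acta2, are markers of meningeal fibroblasts, the extracellular matrix and contractile vessel cells. They were picked by name from the 32754 Ensembl gene IDs of the deposited count table, and all 9 IDs are present in it. Cortical RNA was sequenced from 6 rat fetuses collected on embryonic day 18. The controls were 3 embryos of the Sprague-Dawley strain (SD), and the mutants were 3 of the tish line, a rat with a band of misplaced neurons under the cortex in both hemispheres, a line described in the series title as carrying an Eml1 deletion. Each group held 2 males and 1 female, with 1 library per animal, and no treatment is named for either. The dissection is worded differently by group: neocortex for SD, and for tish the normally placed cortex together with the heterotopic cortex, while in the labels of single samples the SD tissue is called cortex and the tish tissue neocortex. Tissue wording, and litter, which the labels do not give, cannot be told apart from genotype, and the p-values measure only the spread between these embryos.

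The meninges are the membranes that cover the brain. Their fibroblasts secrete fibrillar collagens and small proteoglycans, and the innermost layer, the pia, adheres to the cortical surface. Collagen I is a triple helix of chains encoded by Col1a1 and Col1a2, and collagen III is a trimer of the Col3a1 product. Decorin (Dcn) and lumican (Lum) are leucine-rich proteoglycans that bind collagen fibrils. Igf2 is a fetal growth factor made abundantly by the meninges and choroid plexus. Fibronectin (Fn1) and Sparc, a collagen-binding matricellular protein, are also made by vessels and by glial or progenitor cells in the developing brain, and Acta2 encodes the actin of smooth muscle and mural cells.

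The symbols come with the list of IDs and not from the file. The reference gene table, of the assembly GRCr8, holds all 9 symbols but gives an Ensembl ID for 0 of its 47357 genes, so the pairing could not be checked against the Rnor_6.0 build that the counts use. For 8 of the 9 IDs there were at least 212 counts in every library but tish 3, and these 8 passed the filter on low counts. The ID listed as Col1a2 (ENSRNOG00000011292) had almost no counts, which sits poorly with its label. Its counts were 0 in SD 1, 2 in SD 2, 4 in SD 3, 0 in tish 1, 1 in tish 2 and 0 in tish 3. Col1a1 had 832 to 10334. Whether the label or the counting of reads accounts for this was not tested. All 6 libraries of this ID were at or near the floor of 3 counts, which is 0.144 to 0.192 CPM (counts relative to the size of the library). Its summed counts give 95% Poisson intervals of 0.0407 to 0.241 CPM in SD and 0.000446 to 0.0982 CPM in tish. These intervals and floors cover counting error only. No fold is given for it, and nothing is said here of Col1a2 expression.

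Upstream sequence was at hand in RefSeq (GRCr8) for 5 of the 9 symbols. The 250 bases before the annotated start are shown for Lum and for both listed starts of Igf2, which were among the genes lowest in library tish 3 below, and for Sparc, the member least altered there. Capitals mark matches, on either strand, to 4 motifs: the TATA element (TATAAA), the element bound by nuclear factor Y (CCAAT), the element bound by Sp1 (GGGCGG) and the CArG box, which serum response factor binds; no matches overlap in these windows. Each window is given 5′ to 3′ on the strand of its gene.
Lum, chr7:34245456-34245705, plus strand: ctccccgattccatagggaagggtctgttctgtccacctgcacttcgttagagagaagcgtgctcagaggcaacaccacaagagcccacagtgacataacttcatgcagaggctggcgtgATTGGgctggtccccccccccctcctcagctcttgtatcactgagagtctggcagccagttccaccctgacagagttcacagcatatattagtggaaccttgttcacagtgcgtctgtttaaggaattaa
Igf2 start 1, chr1:207250476-207250725, minus strand: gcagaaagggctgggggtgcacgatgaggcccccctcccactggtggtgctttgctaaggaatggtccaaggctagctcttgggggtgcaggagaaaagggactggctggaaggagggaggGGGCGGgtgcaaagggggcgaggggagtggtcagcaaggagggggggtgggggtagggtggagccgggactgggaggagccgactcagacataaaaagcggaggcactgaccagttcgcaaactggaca
Igf2 start 2, chr1:207253981-207254230, minus strand: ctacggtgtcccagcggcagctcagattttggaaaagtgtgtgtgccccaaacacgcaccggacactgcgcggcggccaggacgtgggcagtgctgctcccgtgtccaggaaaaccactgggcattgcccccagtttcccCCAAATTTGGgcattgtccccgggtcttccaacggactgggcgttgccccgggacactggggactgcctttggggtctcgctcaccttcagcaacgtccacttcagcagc
Sparc, chr10:40038817-40039066, minus strand: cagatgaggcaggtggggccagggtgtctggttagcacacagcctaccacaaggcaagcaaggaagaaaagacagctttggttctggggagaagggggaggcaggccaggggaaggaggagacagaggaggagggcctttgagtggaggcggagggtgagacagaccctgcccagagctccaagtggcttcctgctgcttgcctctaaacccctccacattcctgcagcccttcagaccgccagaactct

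The Lum window held 1 CCAAT motif on the opposite strand, the first Igf2 window 1 Sp1 motif and the second 1 CArG box, 110 to 101 bases before its start. Among 33469 RefSeq windows of this length, 34.0% held the CCAAT motif, 30.5% the Sp1 motif, 12.9% the TATA motif and 1.5% a CArG box. The windows of Sparc and Acta2 held 0 exact matches to the 4 motifs. Near matches were not searched for systematically in any window, so this does not show that such elements are absent. Those named here are examples, and they are not particular to Acta2. The first Igf2 window holds cataaa, which also resembles the TATA element. The Acta2 window, which is not printed here, holds ccctatatgg and ccttgtttgg, which resemble the CArG box, and tatataa, which resembles the TATA element. The windows of Lum and both Igf2 starts shared 0 motifs. The window of the symbol Col1a2, also not printed here, held 1 TATA motif and 1 CCAAT motif. Its CCAAT motif was on the opposite strand, as in Lum. GC content was 52.8% for Lum, 63.6% and 62.4% for the starts of Igf2 and 60.0% for Sparc, against a median of 51.2% over all windows.

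Total counts ran from 15625915 to 20844504 per library, and tish 3, with 20280487, was the second deepest. Of the 6 libraries, tish 3 stood apart for these genes, so every comparison of the groups is given with and without it. Levels below are CPM scaled by TMM factors, which lay between 0.970 and 1.04. Levels of different genes are not compared with each other, because transcript lengths were not used.

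The fibrillar collagens were abundant in 5 libraries and low in tish 3. Col1a1 (ENSRNOG00000003897) stood at 425, 440 and 340 CPM in the SD libraries 1, 2 and 3 and at 319, 502 and 42.3 CPM in the tish libraries 1, 2 and 3, the order used throughout. The tish libraries thus held both the highest and the lowest value, and the groups overlapped. The fitted log2 fold change of tish over SD was -0.48 (SE 0.89, edgeR adjusted p = 0.741), with a 95% interval of -2.84 to 1.88. Without tish 3 it was 0.03 (interval -0.43 to 0.50, edgeR adjusted p = 0.934).

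Col3a1 (ENSRNOG00000003357) was the one tested member that lay lower in every tish library than in every SD library. Its level was 358, 421 and 351 CPM in SD and 218, 314 and 30.1 CPM in tish, or 377 ± 38.8 against 188 ± 145 CPM (standard deviation, n = 3 each). Of all 14818 tested genes, 22.6% lay lower in tish in this way and 44.3% did not overlap in either direction, so 1 of 8 members is below the background. The log2 fold change was -1.01 (SE 0.85, edgeR adjusted p = 0.455). Without tish 3 it was -0.50 (SE 0.16), with an interval of -0.87 to -0.12, an unadjusted p of 0.0157 and an edgeR adjusted p of 0.0749, which does not pass 0.05.

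The proteoglycans that coat collagen fibrils were low in the same library. Dcn (ENSRNOG00000004554) had 472, 455 and 490 counts in the SD libraries against 419, 808 and 67 for tish, which is 26.9, 24.5 and 26.3 CPM against 26.7, 39.2 and 3.41 CPM. The SD libraries lay close together, inside the range of tish. Lum (ENSRNOG00000004610) had 421, 350 and 321 counts in the SD libraries against 212, 372 and 34 for tish, which is 24.0, 18.9 and 17.2 CPM against 13.5, 18.1 and 1.73 CPM. Here tish 2 lay within the SD range, and tish 1 and tish 3 lay below it. The counts in tish 3 are small, with 95% Poisson intervals of 2.64 to 4.33 CPM for Dcn and 1.20 to 2.42 CPM for Lum, and both lie far under the lowest of the other libraries.

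The log2 fold change of Dcn was -0.16 (interval -2.31 to 1.98, edgeR adjusted p = 0.911) and that of Lum -0.85 (interval -2.80 to 1.10, edgeR adjusted p = 0.473). Without tish 3 the values parted in sign, at 0.35 for Dcn (interval -0.03 to 0.74, edgeR adjusted p = 0.189) and -0.34 for Lum (interval -0.79 to 0.11, edgeR adjusted p = 0.283). Dcn and Lum lie side by side in GRCr8, with 0 protein-coding genes between them.

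Igf2 (ENSRNOG00000020369) had 315, 267 and 254 CPM in SD and 257, 322 and 50.4 CPM in tish. Leaving tish 3 aside, the groups covered much the same range. The log2 fold change was -0.41 with all libraries (SE 0.69, edgeR adjusted p = 0.717) and 0.06 without tish 3 (SE 0.13, edgeR adjusted p = 0.820).

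Acta2 (ENSRNOG00000058039), the smooth muscle actin, had 29.9, 30.2 and 22.7 CPM in SD and 36.8, 32.3 and 7.17 CPM in tish. Both tish 1 and tish 2 lay above all SD libraries and tish 3 below them. With tish 3 set aside, Acta2 and Col3a1 were the 2 of 8 members whose groups did not overlap, where 50.6% of all tested genes did not. The log2 fold change was -0.12 (SE 0.60, edgeR adjusted p = 0.908), and 0.33 without tish 3 (SE 0.15, edgeR adjusted p = 0.189). Among the 8 members, Acta2 was also the one that was not higher in tish 2 than in tish 1.

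The matrix glycoproteins Fn1 and Sparc varied least among the tested members. Fn1 (ENSRNOG00000014288) had 164, 158 and 163 CPM in SD and 144, 171 and 83.6 CPM in tish. Sparc (ENSRNOG00000012840) had 509, 503 and 477 CPM in SD and 484, 601 and 356 CPM in tish. For both genes tish 3 was the lowest library and tish 2 the highest, and the SD libraries were close together. Their log2 fold changes were -0.28 for Fn1 (interval -0.86 to 0.30, edgeR adjusted p = 0.446) and -0.05 for Sparc (interval -0.43 to 0.34, edgeR adjusted p = 0.866), and -0.03 and 0.13 without tish 3.

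**Figure D1:**
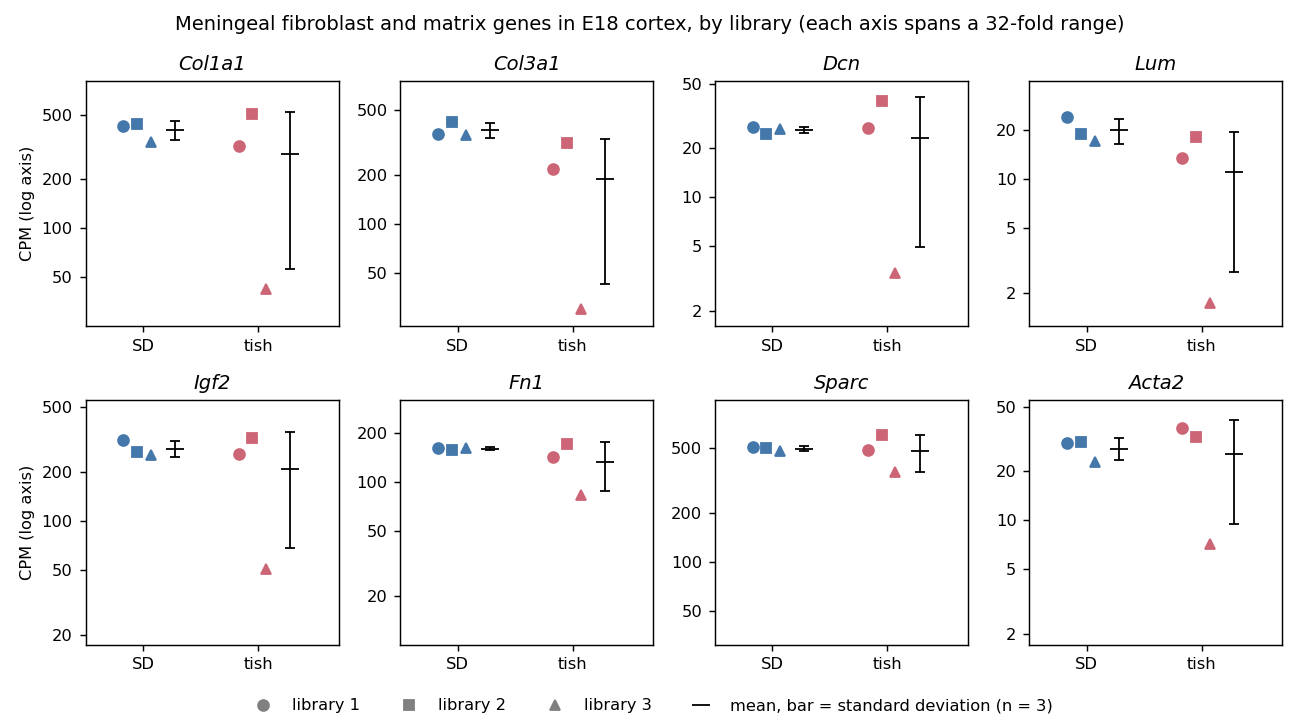
CPM of the 8 tested members in each library on log axes of equal span, with the group mean and standard deviation (n = 3) beside the points. In every panel tish 3 is the lowest point, from 42.3 CPM against at least 319 for Col1a1 to 356 CPM against at least 477 for Sparc.

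The groups were compared to find genes that differ between the mutant and control cortex. Of the 8 tested members, 0 were called at an adjusted p under 0.05 by edgeR's quasi-likelihood test, where the background was 26.3% of all tested genes, made up of 13.4% called higher in tish and 12.9% called lower. At an unadjusted p under 0.05 the count was also 0, and DESeq2 and limma-voom called 0. The adjusted p-values ran from 0.446 to 0.911. The fitted log2 fold change was below 0 for 8 of 8 members, with a median of -0.35 against -0.02 for all tested genes. This common sign rests on tish 3: without that library 5 of 8 values were above 0, the median was 0.04 and 0 members were called, against 16.6% of all tested genes (8.83% higher and 7.78% lower in tish).

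A p above the threshold does not show equal expression here, since the intervals were wide. With all libraries, the interval of Col1a1 allows a change of more than 1 log2 unit in either direction, and so do those of Col3a1, Dcn, Lum, Igf2 and Acta2. The standard deviation of log2 CPM within tish was 1.90 for Col1a1, 1.82 for Col3a1, 1.87 for Dcn and 1.80 for Lum, where the median tested gene had 0.122. Within SD the same 4 genes had 0.201, 0.145, 0.0676 and 0.246, around the median of 0.168. Sparc and Fn1 were steadier in SD than most genes, at 0.0495 and 0.0277, which 92.8% and 97.6% of tested genes equalled or exceeded. Within tish they were more variable than most genes, at 0.3805 and 0.5396, which 11.4% and 5.45% of tested genes equalled or exceeded.

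**Figure D2:**
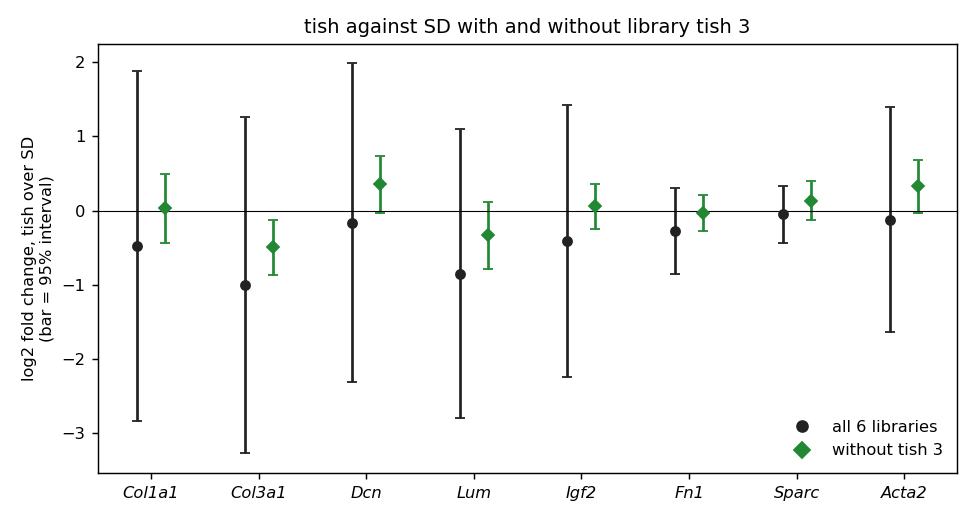
Fitted log2 fold change of tish over SD with its 95% interval for each tested member, with all 6 libraries and without tish 3. The intervals include 0 in every case but Col3a1 without tish 3, at -0.50 with an interval of -0.87 to -0.12, which is not adjusted for the number of genes.

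The size of the deficit in tish 3 differed between the members. Against the geometric mean of tish 1 and tish 2, the level in tish 3 was lower 9.45-fold for Col1a1, 8.71-fold for Col3a1, 9.51-fold for Dcn and 9.04-fold for Lum. It was lower 5.70-fold for Igf2 and 4.81-fold for Acta2, but 1.88-fold for Fn1 and 1.52-fold for Sparc. As a share of the SD mean, tish 3 held 10.5% of Col1a1, 7.98% of Col3a1, 13.2% of Dcn, 8.64% of Lum, 18.1% of Igf2, 26.0% of Acta2, 51.8% of Fn1 and 71.6% of Sparc. The fibrillar collagens and proteoglycans thus lay close together against the other tish libraries, less so against SD, and by both measures the deficit was smaller for Igf2 and Acta2 and smallest for Fn1 and Sparc. In bulk tissue, fewer cells of a type and less RNA per cell cannot be told apart.

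Few genes were as far below their group in tish 3. For Col1a1, 31 of 14808 tested genes with counts (0.209%) were at least as low against the other tish libraries, for Lum 33 and for Igf2 68, but for Fn1 447 and for Sparc 834 (5.63%). At least 4-fold below every other library in tish 3 were 64 tested genes (0.432%), and 5 of the 8 members were among them, Col1a1, Col3a1, Dcn, Lum and Igf2. In the other libraries 4 to 14 genes were that low (0.027% to 0.0945%), and 0 of them were members. Acta2 missed this limit, with the lowest other library 3.17-fold above tish 3. In SD 1, which had 20 genes at least 4-fold above every other library, 0 were members. Since the genes were proposed with the low library already known, these counts describe it and are no independent evidence of it.

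**Figure D3:**
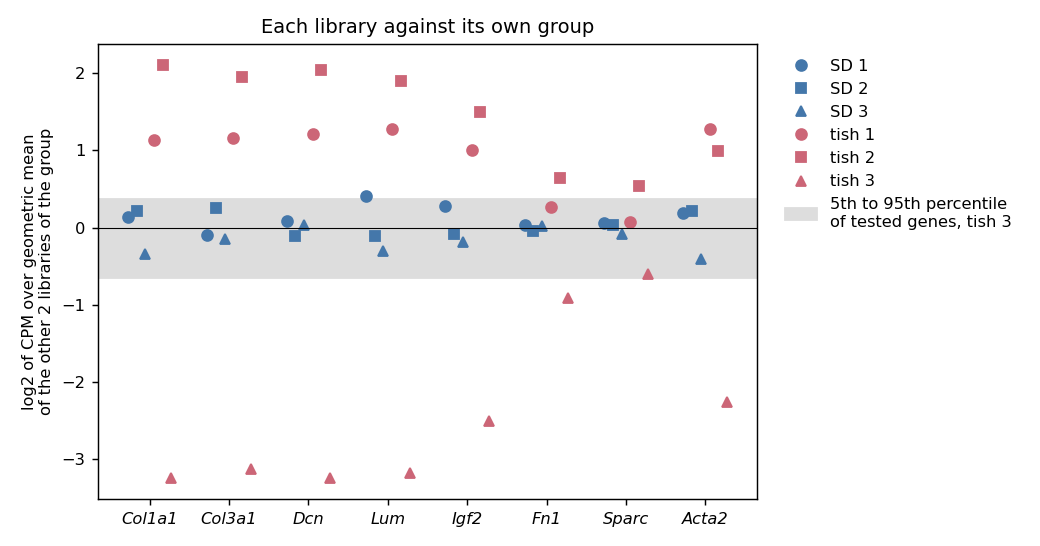
Log2 ratio of each library's CPM to the geometric mean of the other 2 libraries of its group, for the 8 tested members; the grey band holds the 5th to 95th percentile of all tested genes for tish 3. The tish 3 points of Col1a1, Col3a1, Dcn and Lum lie between -3.25 and -3.12, that of Sparc at -0.60 lies within the band, and all SD points lie between -0.40 and 0.41.

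The libraries tish 1 and tish 2 also differed. Of the 8 members, 7 were higher in tish 2, by 1.57-fold for Col1a1, 1.44-fold for Col3a1, 1.47-fold for Dcn, 1.33-fold for Lum, 1.25-fold for Igf2, 1.24-fold for Sparc and 1.19-fold for Fn1. Over all tested genes 51.8% were higher in tish 2, with a median ratio of 1.01. By the labels tish 2 is the female of its group and tish 1 and tish 3 are male, so the difference of tish 2 from the other tish libraries cannot be told apart from sex; SD 2 is the female of the SD group. Together the 9 IDs took 0.167% to 0.192% of the counts in SD libraries, 0.150% in tish 1, 0.198% in tish 2 and 0.0557% in tish 3. What sets tish 3 apart was not tested, and markers of other cell types are not analysed here, because no further gene ID could be paired with a symbol.

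Count ratios between members of the same library do not depend on how libraries are scaled. The ratio of Col1a1 to Col3a1 counts was 1.19, 1.04 and 0.971 in SD and 1.46, 1.60 and 1.41 in tish. It was higher in each tish library than in any SD library, and tish 3 lay with the other tish libraries. The ratio of Dcn to Lum was 1.12, 1.30 and 1.53 in SD and 1.98, 2.17 and 1.97 in tish, again with tish 3 beside the others. Col3a1 to Dcn, a pair looked at after the values were seen, was 13.3, 17.2 and 13.4 in SD and 8.16, 8.02 and 8.82 in tish.

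Among Col1a1, Col3a1, Dcn and Lum, 4 genes grouped after their values were seen, the 6 pair ratios varied within tish by a coefficient of variation of 3.54% to 8.80%, while the level of each gene was lower in tish 3 by the 8.71-fold to 9.51-fold given above. Within SD the same ratios varied by 10.2% to 19.9%. Counting error of a ratio in tish 3 alone, given as a standard error, was 5.38% to 21.1%. Shifts of the ratios in tish 3 of that size or smaller were thus not detectable at this depth, and somewhat larger ones could be missed too. The other 22 pairs, which involve Igf2, Fn1, Sparc or Acta2, varied within tish by 12.1% to 72.5%. Col1a1 to Sparc, for example, was 0.658, 0.835 and 0.119 in tish 1, tish 2 and tish 3, and 0.834, 0.875 and 0.713 in SD. The 4 genes were grouped with their like deficits in tish 3 already known. The contrast within tish between their 6 pairs and the other 22 therefore largely restates those deficits and is no separate observation.

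SD and tish ratios were fully apart in 14 of 28 pairs of tested members, in 5 of the 6 among those 4 genes, and in 6 of the 7 with Col3a1. Of all 109231590 pairs of tested genes with counts in each library, 45.2% did not overlap, and of 14780 ratios of a tested gene to Col3a1, 54.1% did not. Without tish 3 the counts were 17 of 28, 5 of 6 and 6 of 7, against 51.7% of all pairs and 57.6% of ratios to Col3a1. The 28 pairs share genes and are not independent, and their count lies near the background. A shifted ratio shows unequal change of the pair and not which of its genes moved.

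**Figure D4:**
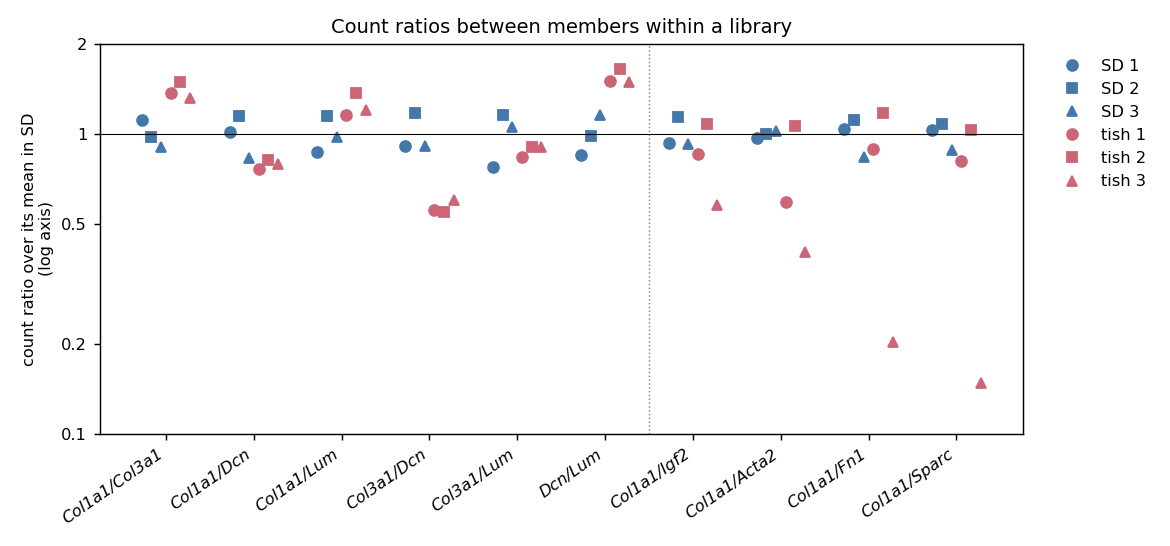
Count ratios between members within each library, divided by the mean ratio in SD, on a log axis; the dotted line parts pairs among Col1a1, Col3a1, Dcn and Lum (left) from pairs with Igf2, Acta2, Fn1 or Sparc (right). On the left the 3 tish points lie together, as for Col3a1/Dcn at 8.16, 8.02 and 8.82 before division, and in the plotted pairs with Fn1 and Sparc tish 3 lies far below the other libraries, at 0.119 against at least 0.658 for Col1a1/Sparc before division. The genes on the left were grouped with their levels in tish 3 known, so this difference between the sides largely follows from the grouping.

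The genes most like the collagens were sought by Pearson's r of log2 CPM over the 6 libraries with the mean of Col1a1 and Col3a1. The ID listed as Col1a2 was left out of that mean because it was not tested. Outside the members, 14 of 14810 tested genes had an r of at least 0.99, and 0 of these were called between tish and SD. The nearest was ENSRNOG00000008749 (r = 0.999), with 79.8, 83.4 and 74.5 CPM in SD and 61.0, 84.0 and 20.2 CPM in tish. The next was ENSRNOG00000025001 (r = 0.998), with 15.3, 17.2 and 13.3 CPM in SD and 10.1, 14.1 and 2.09 CPM in tish. Both follow the collagens in being lowest in tish 3, next lowest in tish 1 and highest in SD 2 or tish 2. Pearson's r does not measure the size of a difference, and the fold drop in tish 3 was smaller for both IDs than for Col1a1 and Col3a1. Among the members, r with that mean was 0.992 for Lum, 0.99 for Fn1, 0.987 for Igf2, 0.971 for Dcn, 0.934 for Acta2 and 0.901 for Sparc. These values describe 6 libraries of which 1 is far from the rest.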

How the data were processed

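The authors deposited 1 table of raw counts of reads per Ensembl gene ID. Reads were aligned with STAR to Rnor_6.0 and counted with featureCounts 1.5.0, per the submitters' processing notes; for the annotation release, the strand setting and multi-mapping reads, nothing is stated in the sources used here. The table lists 32751 IDs again with 0 differing values, and the first occurrence was used. A row that repeats the header was dropped. Each column carries the library name of 1 sample title.

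Genes were kept by filterByExpr (minimum count 10), scaled by TMM and tested with genotype as the only term by robust glmQLFit and glmQLFTest in edgeR 4.0.16 (R 4.3.3), with Benjamini-Hochberg adjustment over all 14818 tested genes. The standard error is the log2 fold change over the square root of F. Alternatives used DESeq2 1.42.0, limma-voom 3.58.1, other scalings and filters, sex, and libraries left out. The procedure was tested on simulated data. Likeness and spread were taken from log2 CPM (prior count 2). Libraries of a group differed by a chi-square of at least 8.56 times its degrees of freedom, so each counts as 1 replicate; replicate numbers follow sample order.

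The rule for named genes was all 9 members and the 2 most similar IDs. Members and lists were chosen with earlier results of these data known. Planned lists of other matrix, mural, endothelial, blood, choroid plexus, microglial, neuronal and growth factor genes were not run, since 0 IDs matched a symbol.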

Additional observations from a re-analysis of the deposited data

How the results depend on the processing

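Of the 8 tested members, 0 were called with all libraries and under each of the 18 alternatives run. Of 128 log2 fold changes of single members under another setting, 0 were called, with a lowest adjusted p of 0.0553 (Col3a1 without SD 1 and tish 3), and 10 reversed in sign, all by leaving out tish 3. Without tish 3 the log2 fold changes were 0.032 for Col1a1, 0.35 for Dcn, 0.055 for Igf2, 0.13 for Sparc and 0.33 for Acta2. Without both SD 1 and tish 3 they were 0.073, 0.38, 0.15, 0.15 and 0.38. With tish 2 left out instead they were -1.16, -0.80, -0.86, -0.24 and -0.34. Col3a1 stayed below 0 throughout, from -1.60 to -0.50, as did Lum, from -1.45 to -0.19, and Fn1, from -0.52 to -0.02. Values from limma-voom, which averages logs, were lower than those of edgeR, for Col1a1 -1.08 against -0.48, for Dcn -0.78 against -0.16 and for Acta2 -0.45 against -0.12; with males alone Dcn was at -0.82. The 5 members at least 4-fold below every other library in tish 3 were also 5 without scaling factors. The background of 3894 called genes (1980 higher, 1914 lower) moved to 2130 (1170 and 960) with males alone and to 1930 (1046 and 884) at an adjusted p under 0.01. With 1 library left out it ran from 2437 to 4764, higher genes from 1307 to 2480 and lower genes from 1130 to 2284; the cause was not tested. No paired analysis was possible because the labels number no replicates, so the numbers used here only name libraries. Depth limits Lum and Dcn in tish 3, with 34 and 67 counts.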
